A study of Mus musculus with 19 samples.

Results

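The oncofetal liver genes described here are Afp, H19, Igf2, Dlk1, Gpc3, Igf2bp1, Igf2bp2, Igf2bp3 and Lin28b, 9 of the 55421 genes in the deposited count table. They were chosen by gene symbol as textbook genes of fetal liver and liver cancer, with earlier results of these data known. Poly(A)-selected, strand-specific RNA-seq covered 19 liver libraries from 15 adult male C57BL/6 mice. Mutants carry a transgene for the AP-1 dimer c-Jun~Fra2, which doxycycline holds off. Doxycycline was withdrawn from mutants and control littermates alike at weaning, at 3 weeks of age. Livers were taken 2 months later (3 mutants, then 6 controls) or 9 months later, in separate sequencing runs. The later set held 4 visible tumours and 3 macroscopically tumour-free samples (called periT) from the same 3 mutants, and liver of 3 controls. Mutant-1 gave 2 of the tumours. Time and sequencing run cannot be told apart. The sources used here do not name the promoter that drives the transgene or its controller, so the cells that express it are not given. The labels call periT and tumour samples mostly transformed hepatocytes and the others mostly hepatocytes.

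Oncofetal genes are active in the fetal liver, are shut down around or after birth, and can come back in liver cancer. Alpha-fetoprotein, the product of Afp, is the main serum protein of the fetus and a blood marker of hepatocellular carcinoma. In mice the zinc-finger factors Zhx2 and Zbtb20 hold Afp down after birth, and Zhx2 also represses H19 and Gpc3. Igf2 is a fetal growth factor and H19 a noncoding RNA, and both belong to an imprinted domain, in which only the copy from one parent is active. Dlk1, a surface protein of hepatoblasts, belongs to another imprinted domain together with the maternally expressed noncoding RNAs Meg3, Rian and Mirg. Gpc3 is a heparan sulfate proteoglycan on the cell surface. Igf2bp1, Igf2bp2 and Igf2bp3 are RNA-binding proteins that bind Igf2 and many other mRNAs. Lin28b blocks the maturation of let-7 microRNAs, which repress several of these genes.

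The promoters of Igf2bp2, Afp, Dlk1 and Igf2bp3 are shown. Igf2bp2 was above controls in all mutant samples, and the levels of the other 3 varied widely between mutant animals. Igf2bp3 was too low to be tested. H19, also called higher in periT, is not shown because no window was at hand for it. The windows come from RefSeq on build GRCm38.p6 and run 5′ to 3′ on the gene's strand, from 250 bases before to 50 bases after the annotated start. Capitals mark matches on either strand to any of 4 motifs. The AP-1 site was searched as TGANTCA, the E-box that Myc can bind as CACGTG, the half-site of the liver factor HNF1 as GTTAAT and the TATA box as TATAAA. None of the matches overlapped another.
Igf2bp2, chr16:22163250-22163549, minus strand: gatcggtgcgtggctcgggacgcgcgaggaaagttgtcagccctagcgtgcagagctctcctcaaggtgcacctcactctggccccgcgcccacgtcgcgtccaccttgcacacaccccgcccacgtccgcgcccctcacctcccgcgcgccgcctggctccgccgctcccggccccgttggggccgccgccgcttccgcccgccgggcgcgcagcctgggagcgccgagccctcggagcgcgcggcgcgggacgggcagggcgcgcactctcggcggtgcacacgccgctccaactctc
Afp, chr5:90490464-90490763, plus strand: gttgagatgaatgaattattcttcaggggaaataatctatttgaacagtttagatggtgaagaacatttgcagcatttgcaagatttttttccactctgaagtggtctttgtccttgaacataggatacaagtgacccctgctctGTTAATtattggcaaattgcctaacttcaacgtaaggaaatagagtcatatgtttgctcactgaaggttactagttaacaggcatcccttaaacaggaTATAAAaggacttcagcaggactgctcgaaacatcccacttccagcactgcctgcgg
Dlk1, chr12:109452573-109452872, plus strand: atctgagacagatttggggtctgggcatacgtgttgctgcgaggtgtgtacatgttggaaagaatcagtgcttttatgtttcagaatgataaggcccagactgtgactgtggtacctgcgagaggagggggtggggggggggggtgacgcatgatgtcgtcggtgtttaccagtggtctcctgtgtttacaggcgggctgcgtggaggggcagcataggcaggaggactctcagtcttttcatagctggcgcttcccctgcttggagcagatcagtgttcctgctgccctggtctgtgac
Igf2bp3, chr6:49214905-49215204, minus strand: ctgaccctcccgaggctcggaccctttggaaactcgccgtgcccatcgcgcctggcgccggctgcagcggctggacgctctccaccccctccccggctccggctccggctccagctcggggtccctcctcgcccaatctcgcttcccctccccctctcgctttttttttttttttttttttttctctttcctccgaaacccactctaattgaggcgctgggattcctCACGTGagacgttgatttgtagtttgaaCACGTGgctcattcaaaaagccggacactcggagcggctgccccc

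RefSeq windows were at hand for 7 of the 9 members, 10 windows in all because Igf2 has several starts. None of the 10 held the AP-1 letters, which 7.81% of all 32851 mouse windows of the same length hold. The E-box was found at -23 to -18 and at 6 to 11 from the annotated start of Igf2bp3 and at -49 to -44 of Lin28b, against 7.15% of all windows. Afp held the HNF1 half-site at -105 to -100 (7.1% of all windows) and the TATA box at -7 to -2 (13.6% of all windows). These positions count from the RefSeq start, which for Afp lies upstream of the start in the annotation used for gene positions below. CpG pairs numbered 47 in the Igf2bp2 window, 30 in that of Gpc3 and 25 in that of Igf2bp3, against 9 for Dlk1, 3 for Afp and a median of 7 over all windows. These are matches of letters in a short window and say nothing of binding.

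Levels are given in CPM, counts scaled to a common library size, after TMM scaling, a correction for the few very abundant liver RNAs that take different shares of the libraries. Libraries held 14294611 to 22062341 counts each. The annotation places other transcripts on the opposite strand of Afp, H19, Igf2, Gpc3, Igf2bp1 and Igf2bp3, and the sources used here do not state whether counting used the strand, so their reads may not be apart. Tests used edgeR's quasi-likelihood model over all genes that pass its filter on low counts. The 2 tumours of mutant-1 were summed, so that n counts animals, and a gene was called at a Benjamini-Hochberg adjusted p below 0.05 over all genes tested. Tumour and periT samples of the same animal were not paired in these tests. Fosl2, which encodes Fra2, averaged 780 CPM in 2-month mutants against 12.5 CPM in their controls, and 637 CPM in tumours and 876 CPM in periT against 13.9 CPM in 9-month controls. Jun averaged 619 against 17.1 CPM at 2 months, and 495 CPM in tumours and 631 CPM in periT against 150 CPM in 9-month controls, where the control numbered 1 alone had 387 CPM. Fosl2 was called in all 3 comparisons, and Jun at 2 months only (adjusted p = 0.268 in tumours and 0.204 in periT). The counts do not tell the animal's own Jun and Fosl2 transcripts from those of the transgene. Hepatocyte markers were present in every library, and at 9 months the summed CPM of 9 of them was 61035 to 89727 in tumours and 59642 to 62092 in periT, against 121151 to 131401 in controls. Alb made up most of the sum in controls, and the markers did not move alike. In periT Alb, Apoa1 and Serpina1a were called lower, by 1.72, 1.98 and 1.94 log2, and Ahsg higher, by 0.86. Ttr, Apob, Fgb, Cps1 and Hnf4a were not called there. In tumours only Ttr, Apoa1 and Serpina1a were called, all lower. Immediate early and heat shock genes summed to 1446 and 1444 CPM in the mutant-1 tumours, 902 CPM in periT of mutant-1 and 3373 CPM in the 9-month control numbered 1, against 53.2 to 127 CPM in the other 9-month libraries.

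The 9 genes did not move as a set. Igf2bp2 was higher in mutant liver from 2 months on and stayed so in every 9-month mutant sample. Afp, H19 and Dlk1 were higher in 9-month periT tissue. In tumours the levels of Afp and Dlk1 went apart from animal to animal, while H19 spread no more in tumours than in periT (SD 0.785 and 1.12 CPM). Gpc3 was not called in any comparison. Igf2, Igf2bp1 and Lin28b were at 0 to 2 counts in every library, and Igf2bp3 exceeded 4 counts only in the tumours of mutant-2 and mutant-3.

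**Figure D1:**
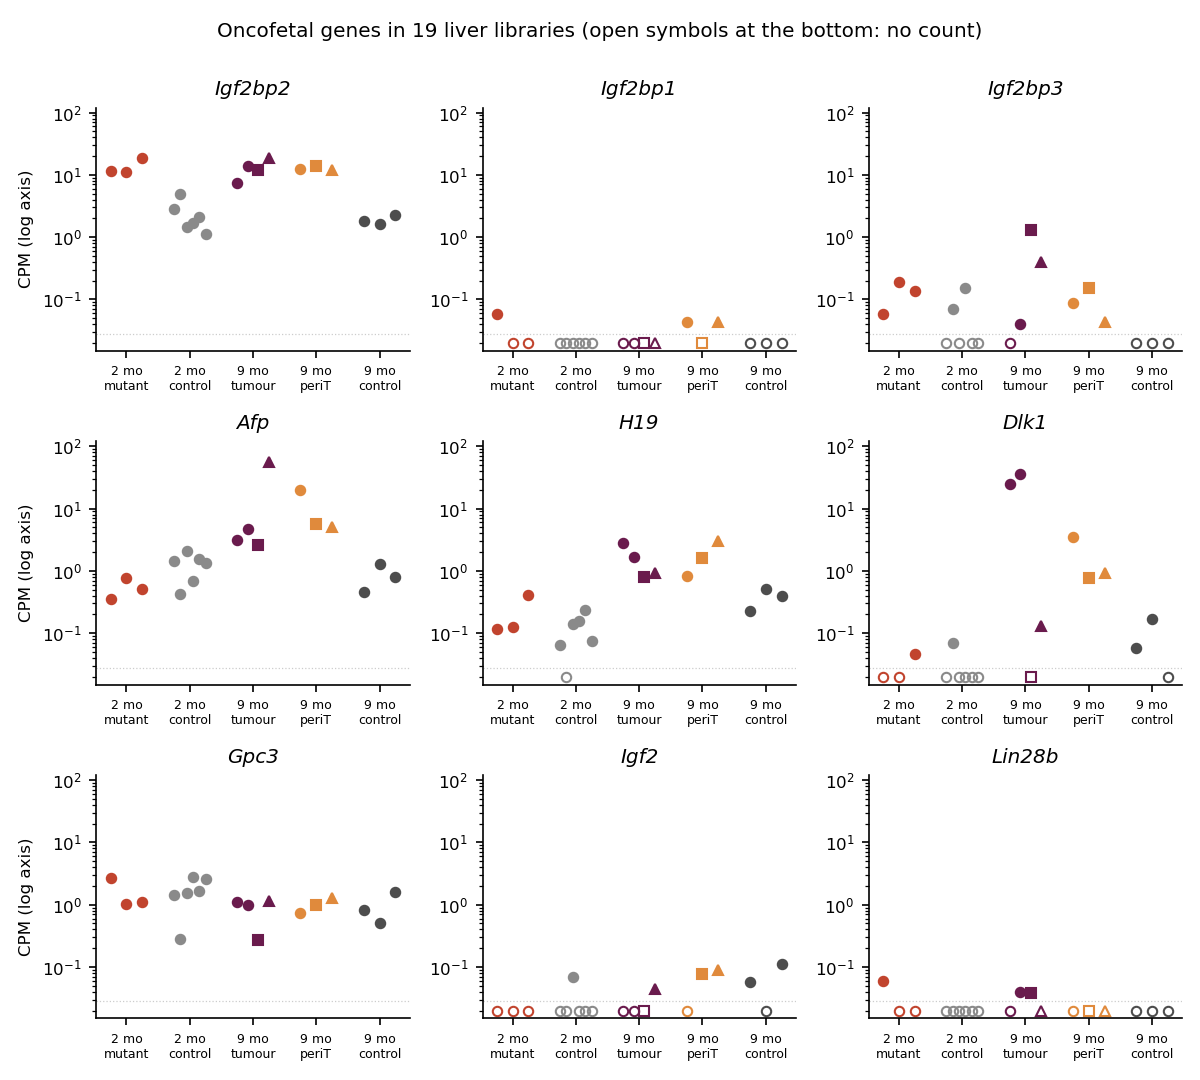
Levels of the 9 genes in each of the 19 libraries, in CPM on a log axis, by group (mo, months after doxycycline withdrawal). Each point is a library, open symbols at the bottom have no count, and among 9-month mutant samples circles are mutant-1, squares mutant-2 and triangles mutant-3. Igf2bp2 lies above its controls in every mutant sample, while Dlk1 is highest in the mutant-1 tumours (24.6 and 35.9 CPM) and Afp in the mutant-3 tumour (56.6 CPM).

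Igf2bp2, which lies on chromosome 16 from 22059009 to 22163299 (GRCm38, minus strand), binds mRNAs and alters their stability and translation. It reached 11.5, 11.0 and 18.9 CPM in the 3 mutants at 2 months, against 1.13 to 5.0 CPM with a median of 1.92 CPM in the 6 controls. Every mutant lay above every control. The rise was 2.53 ± 0.372 on the log2 scale (SE, n = 3 and 6; adjusted p = 0.000296), or 5.79-fold. At 9 months Igf2bp2 was at 7.45 and 13.8 CPM in the tumours of mutant-1, 11.8 CPM in that of mutant-2 and 18.9 CPM in that of mutant-3. It was at 12.5, 13.7 and 11.9 CPM in periT of mutants 1 to 3, and at 1.79, 1.64 and 2.25 CPM in the 3 controls. Again no mutant sample came down to any control. The rise over controls was 2.85 ± 0.308 in tumours (adjusted p = 0.00159) and 2.73 ± 0.195 in periT (adjusted p = 3.94e-05; log2 ± SE, n = 3 animals a group).

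No change in the size of the Igf2bp2 rise with age or between tumour and periT was called. The difference between the 9-month and the 2-month effect was 0.33 ± 0.565 log2 for tumours (adjusted p = 0.822) and 0.25 ± 0.511 for periT (adjusted p = 0.916). Tumours differed from periT by 0.11 ± 0.239 log2 (adjusted p = 0.928). Within single animals the tumour-to-periT ratio was 0.596 and 1.11 in mutant-1, 0.864 in mutant-2 and 1.59 in mutant-3. With 95% Poisson intervals of 0.490 to 0.722 and 1.36 to 1.86, the first mutant-1 tumour lay below and the mutant-3 tumour above its own periT tissue by more than counting error. Controls at 9 months, at 1.90 ± 0.320 CPM, did not differ detectably from those at 2 months, at 2.38 ± 1.41 CPM (SD, n = 3 and 6; log2 change -0.34 ± 0.411, adjusted p = 0.624).

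The other RNA-binding proteins of the family were too low to be tested. Igf2bp3 had 1, 3 and 3 counts in 2-month mutants, against 0 to 2 counts with a median of 0 in controls. At 9 months it had 0 and 1 counts in the mutant-1 tumours, 34 counts in the mutant-2 tumour and 9 counts in the mutant-3 tumour, with 2, 4 and 1 counts in periT and no count in any of the 3 controls. The mutant-2 tumour stood at 1.31 CPM and the mutant-3 tumour at 0.395 CPM, with no other library above 0.189 CPM. Against its own periT tissue Igf2bp3 was 8.44-fold higher in the mutant-2 tumour (counting interval 3.01 to 32.7). The 4 tumours together held 44 counts against 0 in controls, 34 of them in mutant-2. That is a CPM 7.97-fold higher when the controls are set to 3 counts over the group, and the lower counting limit of the ratio was 6.21. The gene did not pass the filter in any comparison. Igf2bp1 had 1 count in 1 mutant at 2 months and 1 count each in periT of mutants 1 and 3, and none in the other 16 libraries, tumours and controls included. A count of 0 over the 3 controls at 9 months allows up to 0.0569 CPM, and over the 4 tumours up to 0.0309 CPM.

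Lin28b had 1 count in the mutant numbered 1 at 2 months, 1 in the second tumour of mutant-1 and 1 in the mutant-2 tumour, and none elsewhere. Its paralog Lin28a, which also blocks let-7 in embryonic cells, had 1 count in all 19 libraries together. Hmga2, a chromatin protein of fetal tissues that let-7 represses, summed to 25 counts in tumours and 13 in periT against 1 count in 9-month controls. At 2 months it had 2 counts in mutants against 4 in controls, and it passed the filter in no comparison. Of the let-7 and LIN28 pathway list, 19 of 25 genes were tested, Igf2bp2 among them. At 2 months 6 were higher and 3 lower in mutants, with a median log2 change of 0.17 against 0.01 over all genes tested. In tumours 7 were higher and 1 lower, with a median of 0.38 against 0.01. In periT 5 were higher and 3 lower, with a median of 0.31 against -0.01. Under library size alone, without TMM, 8, 10 and 12 were higher and 1, 0 and 1 lower. With TMM, 42.7%, 25.1% and 34.9% of all genes tested were changed in either direction in these 3 comparisons.

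Besides Igf2bp2, the pathway genes higher in all 3 mutant-to-control comparisons were Arid3a, Cdk6, Ccnd1 and Nras. Cdk6, a cyclin-dependent kinase and let-7 target, rose by 0.83 ± 0.0883 log2 in 2-month mutants (adjusted p = 2.38e-05), 0.74 ± 0.199 in tumours (adjusted p = 0.0327) and 0.63 ± 0.134 in periT (adjusted p = 0.00773). Ccnd1, the cyclin that partners with it, rose by 2.30 ± 0.263 at 2 months, 2.15 ± 0.533 in tumours and 0.78 ± 0.156 in periT (adjusted p = 6.74e-05, 0.0295 and 0.00596). Arid3a, a DNA-binding protein, rose by 1.54, 1.58 and 1.83 log2 in the same order (adjusted p = 0.000605, 0.0184 and 0.0064). The small GTPase gene Nras rose by 0.56, 0.81 and 0.43 log2 (adjusted p = 0.000687, 0.00836 and 0.0351). Mycn averaged 0.236 ± 0.197 CPM in 2-month mutants against 1.24 ± 0.457 CPM in controls, and 0.758 ± 0.276 CPM in tumours and 0.454 ± 0.197 CPM in periT against 2.06 ± 0.844 CPM in controls (SD). It fell at 2 months and in periT (adjusted p = 0.00374 and 0.00846), and the tumour change was not called (adjusted p = 0.0671). Proliferation markers moved alongside, with 4 of them summing to 7.44 to 16.3 CPM in 2-month mutants against 3.20 to 5.10 CPM in controls, and to 21.3 to 27.8 CPM in tumours and 12.7 to 17.2 CPM in periT against 3.10 to 10.2 CPM in 9-month controls. Their part in these changes was not tested.

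Beside these member counts stands the background of all genes. The members were chosen with earlier results of these data known, so their counts are not those of an independently chosen set. At 2 months 1 of 3 members tested was higher, and 22.3% of the 13773 genes tested were higher and 42.7% changed in either direction. In tumours 1 of 4 members tested was higher, against 13.8% higher and 25.1% changed of 14332 genes. In periT 4 of 5 members tested were higher, against 18.1% higher and 34.9% changed of 14352 genes. H19 and Dlk1 passed the filter in that comparison through their periT counts, so the 4 of 5 does not speak for all 9 genes. No member was called between tumours and periT, where 0.0137% of 14566 genes were, or between 9-month and 2-month controls, where 11.9% of 13545 genes were. The change of the mutant effect between times was called for 1 of 5 members with periT (1.44% of 14707 genes) and 1 of 4 with tumours (2.62% of 14701 genes), in both cases Afp. Scaling by library size alone moves the median of all genes up by 0.27 log2 at 2 months, 0.46 in tumours and 0.43 in periT, and that of the change of the mutant effect by 0.11 with periT and 0.15 with tumours. The share of called genes that are higher is then 77.7%, 85% and 82.9%, against 52.1%, 54.9% and 51.9% with TMM. For the changes of the mutant effect that scaling gives 51.4% with periT and 52.4% with tumours, against 36.8% and 34% with TMM.

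**Figure D2:**
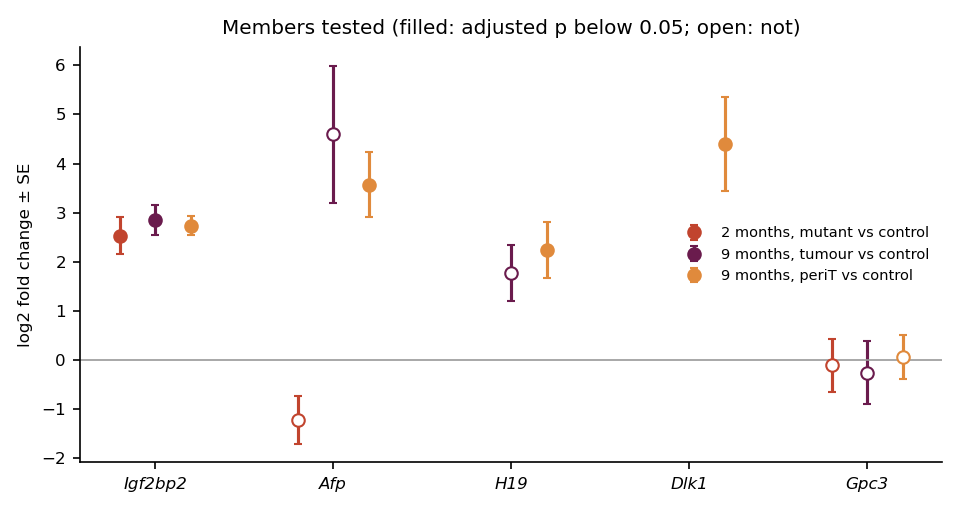
Log2 fold change of mutant samples over controls of the same age for the members that passed the filter, with standard errors from the edgeR fit. Red is 2-month mutants, purple 9-month tumours and orange 9-month periT; filled points have an adjusted p below 0.05. Igf2bp2 is higher in all 3 comparisons, by 2.53, 2.85 and 2.73, and Gpc3 lies near 0 in each.

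Afp, on chromosome 5 from 90490737 to 90508907 (plus strand) beside the albumin gene, was not called in 2-month mutant liver and was called higher in 9-month periT tissue. It was at 0.354, 0.756 and 0.509 CPM in the 3 mutants at 2 months, against 0.423 to 2.11 CPM with a median of 1.39 CPM in the 6 controls. The mutants lay in the lower part of the control range or below it. The change of -1.22 ± 0.479 log2 was not called (adjusted p = 0.0599). It passed on leaving out the control numbered 2 or 4 (adjusted p = 0.0162 and 0.0473) and with DESeq2 (adjusted p = 0.0445).

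At 9 months Afp was at 3.18 and 4.68 CPM in the mutant-1 tumours, 2.61 CPM in the mutant-2 tumour and 56.6 CPM in the mutant-3 tumour. PeriT tissue of mutants 1 to 3 had 19.9, 5.76 and 5.03 CPM, and the controls had 0.463, 1.30 and 0.789 CPM. All 7 mutant samples lay above all 3 controls. In periT the rise of 3.57 ± 0.661 log2 was called (adjusted p = 0.00481; 11.9-fold), though not once genes of low count were kept in the fit (adjusted p = 0.0533). In tumours the difference of 4.60 ± 1.39 log2 was not called (adjusted p = 0.0562). Without mutant-3 it was 1.95 log2 and called (adjusted p = 0.0313), and it was also called without mutant-1 or without mutant-2, at 5.11 and 5.14 log2 (adjusted p = 0.0443 and 0.0496). It also passed under library size alone, in a fit over all 5 groups and with only the second mutant-1 tumour (adjusted p = 0.0329, 0.00249 and 0.0483).

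The Afp effect of the mutants was higher at 9 than at 2 months by 4.84 ± 0.836 log2 in periT (adjusted p = 0.00822). In tumours the difference was 5.84 ± 1.41 (adjusted p = 0.0453). The periT call was lost in 3 of 23 alternative fits, limma voom, a fit over all 5 groups and a replicate block, with adjusted p = 0.0726, 0.225 and 0.0914. The tumour call was lost in 16 of 26, among them every fit that left out a control or a 2-month mutant. The highest sample was not of the same kind in each animal. The mutant-1 tumours stood at 0.160 and 0.235 times their periT tissue, and the mutant-2 tumour at 0.453 times its own. The mutant-3 tumour was 11.3-fold above its own (counting interval 9.30 to 13.8). In the unpaired test over the 3 animals tumours and periT differed by 1.02 ± 1.24 log2 (adjusted p = 0.857). The periT sample with the most Afp, that of mutant-1, was also the one in which immediate early and heat shock genes were high, and their part in the Afp level was not tested. The sum of 8 macrophage markers was highest in the mutant-3 tumour, at 969 CPM, against 281 to 709 CPM in the other 3 tumours, 545 to 640 CPM in periT and 162 to 203 CPM in controls. Of these markers Adgre1, Cd68, Csf1r, Gpnmb and Trem2 were called higher in tumours than in controls. The Kupffer cell genes Clec4f, Vsig4 and Timd4 were not called, at -0.68, -0.28 and -0.92 log2 (adjusted p = 0.663, 0.86 and 0.582). The part of macrophages in the Afp level was not tested either.

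The Afp repressors Zhx2 and Zbtb20 were called at 2 months only, in opposite directions. Zhx2 was at 15.4, 20.2 and 19.7 CPM in 2-month mutants, against 22.5 to 28.3 CPM with a median of 24.8 CPM in controls, a fall of 0.43 log2 (adjusted p = 0.0094) that was not called under library size alone (-0.16, adjusted p = 0.304). At 9 months Zhx2 was at 16.9 and 18.5 CPM in the mutant-1 tumours, 22.4 CPM in the mutant-2 tumour and 15.8 CPM in the mutant-3 tumour. PeriT had 18.2, 14.5 and 12.4 CPM, and controls had 22.8, 12.9 and 21.0 CPM. These groups overlapped, with a log2 change of -0.04 in tumours (adjusted p = 0.925) and -0.33 in periT (adjusted p = 0.303). Zbtb20 rose by 0.48 log2 at 2 months (adjusted p = 0.0205), and its changes of 0.14 in tumours and -0.02 in periT were not called (adjusted p = 0.67 and 0.958). Zfhx3, a further repressor of Afp, was not called, at -0.28, -0.06 and 0.03 log2 (adjusted p = 0.199, 0.947 and 0.883). All 19 listed regulators of Afp were tested. At 2 months 2 were higher and 5 lower, in tumours 1 higher and 2 lower, and in periT 1 higher and 1 lower. Under library size alone these counts were 3 and 2, 2 and 0, and 8 and 0. The shares of all genes changed in either direction with TMM were 42.7% at 2 months, 25.1% in tumours and 34.9% in periT. Gata6, a factor of the early liver bud, rose in all 3 comparisons, by 1.88, 1.44 and 1.63 log2 (adjusted p = 1.06e-05, 0.0163 and 0.00214). Its relative Gata4 fell by 0.59 log2 at 2 months (adjusted p = 0.000863), and the nuclear receptor Nr2f2 fell by 0.52, 0.57 and 0.51 log2 (adjusted p = 0.0303, 0.0415 and 0.0222). The falls of Nr2f2 were not called under library size alone (adjusted p = 0.231, 0.634 and 0.709).

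None of the neighbours of Afp in the albumin cluster was called higher in mutants than in controls of the same age. Alb, the adult serum albumin gene, averaged 30713 ± 4824 CPM in 2-month mutants against 101328 ± 7551 CPM in controls (SD, n = 3 and 6; log2 change -1.72, adjusted p = 3.11e-06). At 9 months it averaged 53148 ± 9421 CPM in tumours and 28042 ± 951 CPM in periT, against 92285 ± 5774 CPM in controls (SD, n = 3 each; -0.82 with adjusted p = 0.111, and -1.72 with adjusted p = 0.000144). Afm, which encodes the vitamin E carrier afamin, fell by 2.36 log2 at 2 months and by 1.45 in periT (adjusted p = 2.98e-06 and 0.000562), and was at -0.28 in tumours (adjusted p = 0.531). Gc, the gene of the vitamin D carrier in the same cluster, was not called in the 3 comparisons, with log2 changes from -0.09 to 0.07. The Afp change at 2 months, not called, was negative like those of Alb and Afm. As for Afp, the Afm effect with tumours was higher at 9 than at 2 months, by 2.10 log2 (adjusted p = 0.00914). With periT that difference was 0.95 (adjusted p = 0.0887). For Alb the differences of 0.93 with tumours and 0.04 with periT were not called (adjusted p = 0.0711 and 0.973), nor were those of Gc. In bulk tissue, fewer cells of a type and less RNA per cell cannot be told apart. Of 20 listed adult hepatocyte genes that mature after birth, 10 were lower and 0 higher at 2 months, 11 lower and 0 higher in tumours, and 11 lower and 2 higher in periT. Under library size alone these were 10 and 2, 9 and 0, and 9 and 3. Over all genes tested, 42.7%, 25.1% and 34.9% were changed in either direction in the same order, with TMM. The 3 of the 20 listed genes with the smallest p at 2 months were Sult2a8, Hsd3b5 and Elovl3. Their log2 changes were -6.94, -9.84 and -9.97 (adjusted p = 3.85e-08, 2.62e-06 and 1.36e-05). Sult2a8 and Hsd3b5 belong to families of close relatives, between which counting may divide reads.

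H19, on chromosome 7 from 142575529 to 142578143 (minus strand), rose in 9-month periT tissue from a very low base, while Igf2 of the same domain stayed at 0 to 2 counts. At 2 months H19 had 0.118, 0.126 and 0.416 CPM in mutants, against 0 to 0.237 CPM with a median of 0.108 CPM in controls. These were 13 counts over 3 mutants and 9 over 6 controls, and the gene did not pass the filter. At 9 months H19 was at 2.83 and 1.66 CPM in the mutant-1 tumours, 0.806 CPM in the mutant-2 tumour and 0.921 CPM in the mutant-3 tumour. PeriT of mutants 1 to 3 had 0.834, 1.59 and 3.04 CPM, and the controls had 0.231, 0.509 and 0.395 CPM. Every tumour and periT sample lay above every control. The periT rise of 2.24 ± 0.565 log2 was called (adjusted p = 0.0166) and was lost on leaving out the 9-month control numbered 3 (adjusted p = 0.058). The tumour difference of 1.78 ± 0.567 was not called (adjusted p = 0.0575), and it was called without mutant-2 (adjusted p = 0.0422), with DESeq2 (0.0445), under library size alone (0.0234), in a fit over all 5 groups (0.0257) and with the tumours kept apart (0.0339).

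The tumours of mutant-1 held more H19 than their periT tissue, 3.4-fold and 2.0-fold (counting intervals 2.01 to 6.00 and 1.14 to 3.63). The tumours of mutant-2 and mutant-3 held less, at 0.508 and 0.303 times (intervals 0.285 to 0.880 and 0.176 to 0.499). No difference between tumours and periT was called in the unpaired test over the 3 animals (-0.45 ± 0.599 log2, adjusted p = 0.871). Igf2 had no count in the 2-month mutants and 1 count in 1 of the 6 controls. At 9 months it had 1 count, in the mutant-3 tumour, among the 4 tumours, 0, 2 and 2 counts in periT and 1, 0 and 2 counts in controls. No library reached 3 counts, and the floor of 3 counts over the group is 0.0309 CPM for the tumours. Igf2 overlaps other annotated transcripts on both strands, so even these few counts may not all be its own.

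Receptors and carriers of the growth factor pathway moved in both directions. Igf2r, the receptor that clears IGF2, averaged 84.6 ± 11.0 CPM in 2-month mutants against 48.2 ± 6.57 CPM in controls. At 9 months it averaged 118 ± 44.8 CPM in tumours and 87.0 ± 12.1 CPM in periT, against 49.2 ± 7.36 CPM in controls (SD). The log2 rises were 0.82, 1.25 and 0.82 (adjusted p = 0.000373, 0.0208 and 0.00523). Igf1r, the signalling receptor, was low at 2.04 to 4.07 CPM in all libraries and was not called (0.37, -0.08 and -0.12 log2; adjusted p = 0.167, 0.863 and 0.729). Igf1, the postnatal growth factor of liver, was at -0.21 log2 in 2-month mutants (adjusted p = 0.304) and fell by 1.34 in tumours and by 0.65 in periT (adjusted p = 0.0412 and 0.0106). Neither Igf1 fall was called under library size alone (adjusted p = 0.123 and 0.284). Igfbp2, which binds both growth factors, averaged 10.3 CPM in 2-month mutants against 360 CPM in controls, and 0.766 CPM in tumours and 1.62 CPM in periT against 188 CPM in 9-month controls. Its log2 changes of -5.13, -7.85 and -6.85 were called (adjusted p = 8.75e-06, 0.00201 and 8.97e-06). The serum carrier gene Igfals fell by 2.00, 2.15 and 2.00 log2 (adjusted p = 1.44e-05, 0.00344 and 8.97e-05), and the growth hormone receptor gene Ghr by 0.82, 1.68 and 1.48 (adjusted p = 0.00068, 0.0035 and 0.000491). Of 18 listed genes of this axis 15 were tested, and 2 were higher and 4 lower in each of the 3 comparisons. Under library size alone 3 were lower in each, and 3, 6 and 5 were higher. Of all genes tested, 42.7% were changed in either direction at 2 months, 25.1% in tumours and 34.9% in periT, with TMM.

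Dlk1, on chromosome 12 from 109452823 to 109463336 (plus strand), differed widely between tumours. It had 0, 0 and 1 counts in 2-month mutants, against 0 to 1 counts with a median of 0 in controls. At 9 months it was at 24.6 and 35.9 CPM in the mutant-1 tumours, from 564 and 907 counts, while the mutant-2 tumour had 0 counts and the mutant-3 tumour 3 counts (0.132 CPM). PeriT tissue of mutants 1 to 3 had 3.51, 0.774 and 0.926 CPM, and the controls had 0.0578, 0.170 and 0 CPM. All 3 periT samples lay above all 3 controls, whereas the tumours lay on both sides.

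The periT rise of Dlk1 was 4.40 ± 0.962 log2 (adjusted p = 0.00891, lost in a fit over all 5 groups at 0.0956). The controls held 4 counts in all, and the pooled ratio was 22.4 with a counting interval of 8.51 to 83.4. In tumours against controls Dlk1 did not pass the filter. Between tumours and periT it differed by 2.57 ± 2.04 log2 (adjusted p = 0.764), and without the tumours of mutant-1 the difference was -4.70 (adjusted p = 0.221). The mutant-1 tumours stood 7.0-fold and 10.2-fold above their periT tissue (counting intervals 5.53 to 8.96 and 8.14 to 13.0). The mutant-2 tumour was 6.72-fold below its own with 3 counts taken for its 0, and the upper counting limit of its ratio was 0.201. The mutant-3 tumour stood at 0.142 times its own (0.0271 to 0.476).

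**Figure D3:**
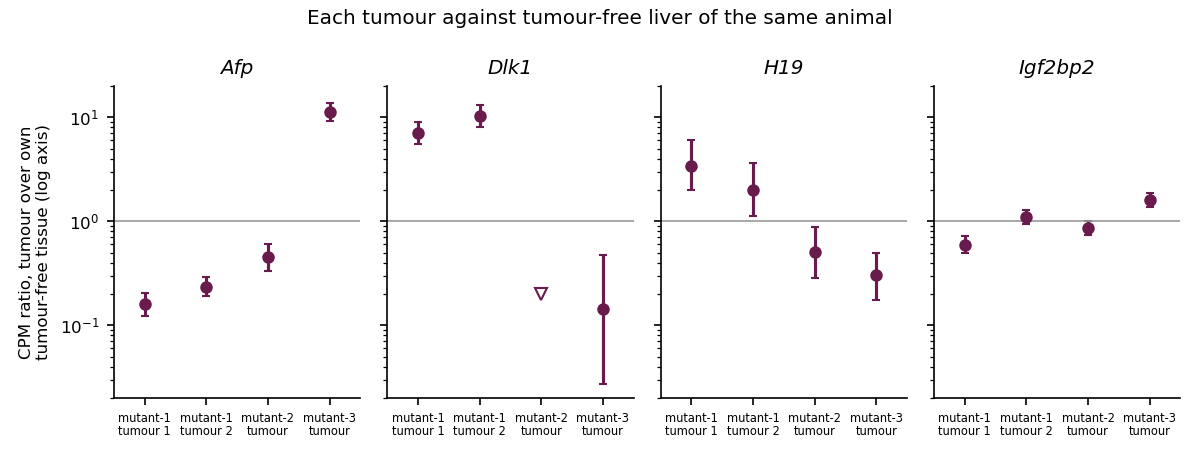
Ratio of CPM in each tumour over periT liver of the same mutant, on a log axis, for Afp, Dlk1, H19 and Igf2bp2. Points are ratios with 95% counting intervals, and the open triangle is the upper limit for the mutant-2 tumour, which had 0 Dlk1 counts. Dlk1 and H19 are above 1 in both mutant-1 tumours and below 1 in the others, Afp is above 1 only in the mutant-3 tumour (11.3), and Igf2bp2 stays between 0.596 and 1.59.

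The noncoding RNAs of the Dlk1 domain split the tumours in the same places, but were already high in young mutants. Meg3 was at 35.1, 25.2 and 28.2 CPM in 2-month mutants, against 2.32 to 6.93 CPM in controls, a rise of 2.95 ± 0.281 log2 (adjusted p = 1.24e-05). At 9 months Meg3 was at 257 and 251 CPM in the mutant-1 tumours, 1.11 CPM in the mutant-2 tumour and 5.35 CPM in the mutant-3 tumour. PeriT had 50.3, 62.9 and 76.7 CPM, and controls had 5.96, 4.07 and 2.14 CPM. The tumours of mutants 2 and 3 were within or below the control range while the tissue beside them was not. The periT rise of Meg3 was 3.96 ± 0.344 log2 (adjusted p = 9.22e-05), and the tumour change of 4.39 ± 1.91 was not called (adjusted p = 0.14). Rian was at 125 and 116 CPM in the mutant-1 tumours, 0.614 CPM in the mutant-2 tumour and 2.76 CPM in the mutant-3 tumour, against 0.564 to 3.30 CPM in 9-month controls. It rose by 3.49 log2 at 2 months and by 3.96 in periT (adjusted p = 7.41e-06 and 0.000899). Mirg rose by 4.15 and 5.37 log2 in the same comparisons (adjusted p = 7.73e-05 and 0.000325). It was at 10.9 and 9.63 CPM in the mutant-1 tumours and at 0.269 and 0.351 CPM in those of mutants 2 and 3. Rtl1, the paternally expressed partner of Dlk1, had at most 2 counts in any library.

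**Figure D4:**
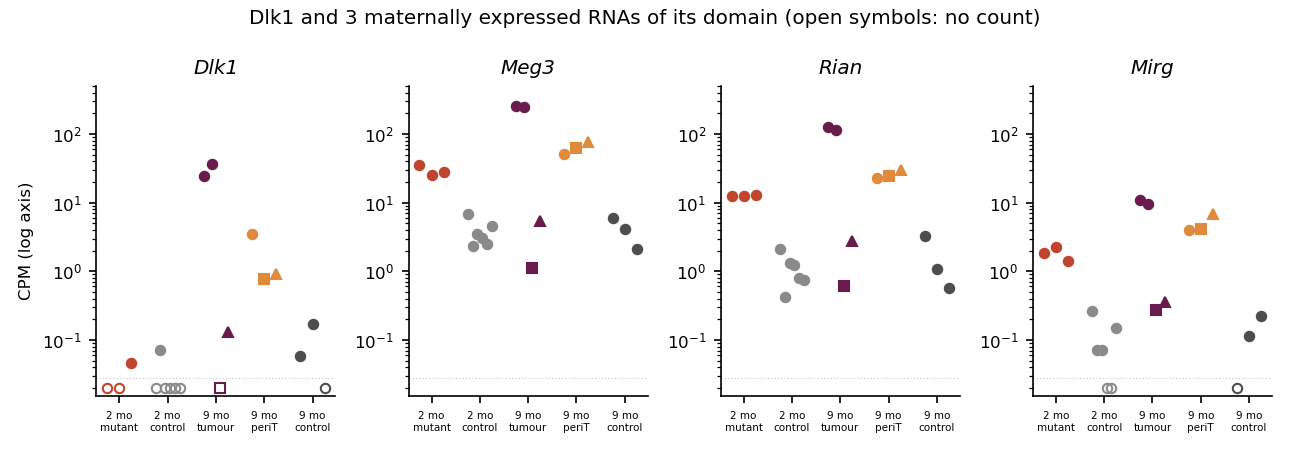
Dlk1 and the noncoding RNAs Meg3, Rian and Mirg of its imprinted domain in each library, in CPM on a log axis, with symbols as in the plot of the 9 genes by library. Meg3, Rian and Mirg are above controls in all 2-month mutants and all periT samples, and for all 4 genes the mutant-1 tumours are highest and the tumours of mutants 2 and 3 fall back to the control range or near it.

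Of the cell type markers looked at here, the bile duct sum was also highest in the mutant-1 tumours. The summed CPM of 7 bile duct markers was 2399 and 3088 in these tumours and 418 and 93.0 in those of mutants 2 and 3, with 93.1 to 242 in periT and 75.8 to 142 in 9-month controls. Nearly all of it was Spp1, which encodes osteopontin and was at 2355 and 2996 CPM in the mutant-1 tumours. The duct keratin gene Krt19 was at 1.48 and 1.31 CPM there, 0.0384 CPM in the mutant-2 tumour and 0.570 CPM in the mutant-3 tumour, within or below the 0.905 to 2.76 CPM of 9-month controls. Stellate cell and fibroblast markers summed to 612 and 736 CPM in the mutant-1 tumours and 553 and 423 CPM in those of mutants 2 and 3, with 387 to 604 CPM in periT and 216 to 339 CPM in controls. Mesothelial markers reached 40.2 CPM in the second mutant-1 tumour, against at most 6.23 CPM in any other 9-month library. None of the 7 bile duct markers was at 0 in any group. The part of these cells in the Dlk1 level was not tested. Immediate early and heat shock genes were high in the mutant-1 tumours and in periT of mutant-1, the periT sample with the most Dlk1. They were also high in the 9-month control numbered 1, and their part in the Dlk1 level was not tested either.

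Of the 32 imprinted genes listed, H19, Igf2 and Dlk1 among them, 22 were tested at 2 months, and 9 were higher and 4 lower. In tumours 6 of 22 were higher and 0 lower, and in periT 11 of 26 were higher and 3 lower. H19, Dlk1, Dio3, Asb4, Mirg and Phlda2 entered the periT test through their periT counts, since none of them passed the filter between the control groups. All 6 count among the 11, so the list is described by its members and not by its share. The same holds for Mirg and Phlda2 at 2 months and for Phlda2 in tumours. Under library size alone 10, 8 and 17 were higher and 0, 0 and 1 lower. Phlda2, an imprinted growth restrainer of the placenta, rose most, by 4.79, 7.08 and 6.81 log2 (adjusted p = 4.35e-07, 0.00216 and 3.77e-05). Peg3, a paternally expressed zinc-finger gene, fell by 1.17 log2 at 2 months (adjusted p = 0.0343, and 0.0892 under library size alone) and rose by 2.83 in tumours (adjusted p = 0.0254). The difference between these effects was 4.04 ± 0.784 (adjusted p = 0.0176). Peg3 was at 71.3 and 47.7 CPM in the mutant-1 tumours and 10.2 and 18.6 CPM in those of mutants 2 and 3, all above the 3.47 to 4.47 CPM of 9-month controls. Mest, a further paternally expressed gene, rose by 0.87, 1.87 and 0.89 log2 (adjusted p = 0.00612, 0.0261 and 0.00916).

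Gpc3, on the X chromosome from 52272426 to 52613950 (minus strand), was not called in any comparison. It was at 2.66, 1.01 and 1.11 CPM in 2-month mutants, against 0.282 to 2.79 CPM with a median of 1.60 CPM in controls. At 9 months it was at 1.09 and 0.991 CPM in the mutant-1 tumours, 0.269 CPM in the mutant-2 tumour and 1.14 CPM in the mutant-3 tumour, at 0.746, 1.01 and 1.28 CPM in periT and at 0.810, 0.509 and 1.58 CPM in controls. All groups overlapped. The log2 changes were -0.11 ± 0.536 at 2 months, -0.26 ± 0.643 in tumours and 0.06 ± 0.455 in periT (adjusted p = 0.891, 0.8 and 0.934), and the first and second turn positive under library size alone (0.15 and 0.19). Changes within these standard errors could not be told from none. Gpc4, the gene of another cell-surface proteoglycan, fell by 0.84, 0.78 and 0.59 log2 (adjusted p = 9.43e-06, 0.0281 and 0.0185). Its falls in tumours and periT were not called under library size alone. Hs2st1, a heparan sulfate sulfotransferase gene, rose by 0.94, 1.21 and 0.88 (adjusted p = 7.62e-05, 0.00769 and 0.009). Of 17 listed genes for glypicans, syndecans and their enzymes, 14 were tested at 2 months, with 6 higher and 2 lower, and 15 at 9 months, with 1 higher and 3 lower in tumours and 4 higher and 2 lower in periT. Under library size alone 7, 7 and 6 were higher and 2, 1 and 1 lower. With TMM, 42.7% of all genes tested were changed in either direction at 2 months, 25.1% in tumours and 34.9% in periT.

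Other fetal liver and liver tumour markers were also examined. Of 30 listed, 10 of 19 tested were higher and 1 lower at 2 months, 13 of 22 were higher and 0 lower in tumours, and 14 of 24 were higher and 0 lower in periT. Without TMM the counts were 11, 15 and 14 higher and 0 lower. Sall4, Spink1, Bex1, Bex2 and Igdcc4 entered the periT test through their periT counts, and Spink1, Bex1 and Bex2 the tumour test through their tumour counts. All count as higher, so the periT and tumour shares are not set against those of all genes. At 2 months 22.3% of the 13773 genes tested were higher and 42.7% changed in either direction, with TMM. Scd2, a desaturase of fetal liver, rose by 4.34, 4.36 and 3.86 log2 (adjusted p = 3.22e-09, 0.00363 and 1.9e-05). Vil1, the villin gene of brush borders, rose by 7.51, 8.22 and 7.77 (adjusted p = 3.71e-08, 0.0044 and 2.81e-06). Ly6d, a surface protein gene, rose by 7.69, 4.74 and 5.32 (adjusted p = 2.8e-07, 0.017 and 0.0112). Spink1, a secreted protease inhibitor gene of liver tumours, rose by 6.49 in tumours and by 5.27 in periT (adjusted p = 0.0107 and 0.000303). Sall4, a zinc-finger factor of fetal liver, had 39, 42 and 45 counts in periT against 0, 0 and 1 in controls, while tumours had 28 and 40 counts in mutant-1, 1 in mutant-2 and 12 in mutant-3. Its periT change of 6.15 log2 was called (adjusted p = 0.000233), and it did not pass the filter in tumours.

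Compared per kilobase of exon, the order of the members differed between groups. In tumours the mean level was 6.25 CPM per kb for Afp, 1.87 for Igf2bp2, 1.81 for Dlk1, 0.535 for H19, 0.303 for Gpc3 and 0.0703 for Igf2bp3. The SDs of Afp and Dlk1, 9.15 and 3.11, exceed their means, so their places in that order do not hold from animal to animal. In periT it was 3.04 for Afp, 1.72 for Igf2bp2, 0.740 for H19, 0.376 for Gpc3 and 0.307 for Dlk1, and the last pair lay within their spread. The lead of Afp rested on mutant-1, at 5.92 against 1.69 for Igf2bp2. In mutants 2 and 3 Afp was at 1.71 and 1.49 and Igf2bp2 at 1.85 and 1.61. In 9-month controls Gpc3 led at 0.359 ± 0.205, with Igf2bp2 at 0.256 ± 0.0432 and Afp at 0.253 ± 0.125 (SD, n = 3), and these did not differ beyond their spread. H19 followed at 0.154 and Dlk1 at 0.0134 CPM per kb.

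The genes whose levels followed each member most closely over the 19 libraries were sought among 14558 protein-coding and long noncoding genes, as the smallest root mean square difference of mean-centred log2 CPM. For Igf2bp2 they were Elmo1 (0.372), Pde5a (0.393) and Tgfbr2 (0.439). For Gpc3 they were Gpm6a (0.448), Chst3 (0.462) and Cd79a (0.467), and for H19 Sapcd2 (0.654), Hpca (0.682) and Cystm1 (0.687). For Afp they were Gprin2 (0.770), Serpinb9f (0.771) and Tmprss11f (0.815), and for Dlk1 Cryaa (0.919), Gm2115 (1.08) and Obp2a (1.18). These libraries share animals, runs and groups, so the values only describe likeness. Obp2a, an odorant-binding protein gene, was at 255 and 464 CPM in the mutant-1 tumours and at most 3.35 CPM in the other 17 libraries.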

How the data were processed

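The 19 libraries were strand-specific and poly(A)-selected, from mouse liver or liver tumour tissue. The authors deposited a table of whole-number counts per gene, used here as it stands. Per the submitters' processing notes the build was GRCm38 and the tools included DESeq2 1.22.2, RSEM, bedtools 2.27.1 and STAR 2.6.1a. What each tool did, and with which annotation, is not stated there. Deposited counts may be rounded RSEM estimates, so floors (3 counts) and 95% Poisson intervals rest on estimated counts and cover counting error only. Of 55421 gene identifiers, 54673 occur with the same version in GENCODE M21, whose positions are used.

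The members, gene lists and tests were chosen with earlier results of these data known. Genes named are the 9 members, in each list those with the smallest adjusted p, and a few named in advance, such as Alb, Igf1 and Zhx2; Spp1, Krt19, Sall4, Peg3 and others were added for their values. Fits used edgeR 4.0.16 on the libraries of the groups compared (R 4.3.3; filterByExpr, TMM, robust quasi-likelihood, adjusted p threshold 0.05). Levels are CPM over all 19 libraries, and likeness used a prior count of 2. The fit was tested on simulated data. Alternatives were DESeq2 1.42.0, limma voom 3.58.1, RLE, library size alone, no filter, one fit over all groups, tumours kept apart, a replicate block and leaving out samples. Tumour and periT samples of one number come from the same animal, and their deviations correlated at 0.0396 to 0.305. Promoter windows and motif counts come from RefSeq (GRCm38.p6).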

Additional observations from a re-analysis of the deposited data

Results flagged for a closer look

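Afp in the mutant-3 tumour, at 56.6 CPM, lay far from the other 3 tumours, which had 2.61 to 4.68 CPM. The Afp effect of the mutants also differed between times, by 4.84 log2 with periT and by 5.84 log2 with tumours. The 2-month control numbered 2 stood apart for Dlk1, at 0.0704 CPM, the 2-month control numbered 3 for Igf2, at 0.0703 CPM, and the mutant-3 tumour for Igf2, at 0.0439 CPM. Each of the last 3 rests on 1 count among libraries with none. In all, 4 of 18 sets of libraries stood out in this way. Chance flags about 1 in 20 sets of measured values, a rate that does not apply to a single count among zeros, and the tumour sets hold 2 tumours of mutant-1.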

How the results depend on the processing

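The rises of Igf2bp2 held in direction and call under every alternative fit of the 3 mutant-to-control comparisons, from 2.22 to 2.89 log2 at 2 months, 2.58 to 3.29 in tumours and 2.64 to 3.17 in periT. The number of members called at 2 months (1) was 2 with DESeq2 and 1 to 2 on leaving out each sample. In tumours (1) it was 2 with DESeq2, 3 under library size alone, 4 in a fit over all 5 groups, 2 with tumours kept apart or only the second mutant-1 tumour, and 1 to 3 on leaving out each sample. For the change of the mutant effect with periT (1) it was 0 with limma voom, one fit or a replicate block, and with tumours (1) it was 0 with limma voom, no filter, a replicate block or tumours kept apart, and 0 to 1 on leaving out each sample. The cause of these shifts was not tested. In periT it was 3 to 4 on leaving out each sample.

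Directions turned for values that were not called. Gpc3 turned at 2 months to 0.026 with limma voom, 0.15 under library size alone and 0.61 with the replicate block, in tumours to 0.19 under library size alone, and for the change of effect to -0.41 with periT (block) and 0.038 with tumours (library size alone). Between tumours and periT, limma voom gave -0.17 for Afp and -0.95 for Dlk1, the replicate block, here the animal, gave -0.28 and -0.52, leaving out the 9-month animals numbered 1 gave -3.67 for Dlk1, and only the first mutant-1 tumour gave -0.0029 for Igf2bp2. Without those animals the H19 change of effect with tumours was -0.059. Leaving out samples in turn, Gpc3 ran from -0.69 to 0.12 at 2 months, -0.57 to 0.28 in tumours, -0.25 to 0.60 in periT, -0.59 to 0.099 between tumours and periT, -0.13 to 0.79 for the change with periT and -0.42 to 0.48 with tumours. Between tumours and periT, Afp ran from -1.64 to 1.95, Dlk1 from -4.70 to 3.59, H19 from -1.08 to 0.13 and Igf2bp2 from -0.18 to 0.26. Igf2bp2 ran from -0.49 to 0.018 between controls, -0.15 to 0.54 for the change with periT and -0.027 to 0.64 with tumours.

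Over all genes, the calls at 2 months (5884) ran from 3290 with a replicate block to 6994 under library size alone, and those in periT (5009) from 3351 without mutant-2 to 6877 under library size alone. Between tumours and periT the block, which pairs samples of one animal, called 1. In tumours (3593) they ran from 1419 without the control numbered 3 to 6610 in one fit, and between tumours and periT (2) from 0 with limma voom to 442 with DESeq2. Between controls (1616) they ran from 384 with a replicate block to 2214 with DESeq2, for the change with periT (212) from 54 in one fit to 523 with DESeq2, and with tumours (385) from 17 with a replicate block to 859 with DESeq2. Apart from tumours and periT, samples of one number share only that number, with correlations of their deviations from -0.228 to 0.303 over these comparisons, and beyond the counts above the block changed no call of a member. Depth limits Igf2, Igf2bp1, Igf2bp3 and Lin28b throughout and H19 and Dlk1 at 2 months.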
